A study of Mus musculus with 35 samples.

Results

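miR-122, the miRNA that hepatocytes express most strongly, was followed in the livers of mice given a single dose of the ethylating mutagen N-ethyl-N-nitrosourea (ENU). Its assay, mmu-miR-122, was 1 of the 376 mouse miRNA assays on a quantitative PCR array, and it was picked by its name on the panel. The animals were 6-month-old female Big Blue Transgenic mice, which carry a mutation reporter transgene and of which no further strain name was given, and all were injected intraperitoneally. ENU was given at 120 mg/kg body weight, and livers were taken on posttreatment day (PTD) 1, 3, 7 or 15 from 5 mice each and on PTD 30 or 120 from 4 mice each. The 7 control mice received the vehicle dimethylsulfoxide (DMSO) and were killed 1 day later (3 mice) or 30 days later (4 mice), and they form 1 control group. These sizes are those of the sample labels, while the study's methods give them the other way round and the headers of the DMSO day 1 arrays carry another day code, so the split by vehicle day rests on the labels. No vehicle mice were available here for PTD 3, 7, 15 or 120. Each of the 35 mice gave 1 array, and each array held 1 miR-122 well.

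miRNAs are short RNAs that lower the output of mRNAs pairing with their seed, bases 2 to 8. miR-122 is cut from a liver-specific transcript driven by hepatocyte transcription factors such as HNF4A. It holds down messages such as Aldoa, a glycolytic enzyme of non-hepatic cells, and Slc7a1, a cationic amino acid transporter, and it sustains cholesterol and fatty acid synthesis. Mice without it develop fatty liver and later liver tumours, and its level is lowered in many human hepatocellular carcinomas. A whole-liver level of miR-122 is therefore often read as a mark of hepatocyte identity.

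Of the miRNAs set against miR-122 here, some of those that came next in abundance, that are liver-rich or that varied like it are shown, with miR-195a added because it shares the seed of miR-16. Their mature sequences, from RefSeq on GRCm38.p6, are shown with the seed in capitals, and for each older panel name the arm that the name stood for was taken.
miR-194-5p: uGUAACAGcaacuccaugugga
miR-192-5p: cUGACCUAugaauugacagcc
miR-21a-5p: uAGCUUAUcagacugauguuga
miR-16-5p: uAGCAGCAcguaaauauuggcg
miR-195a-5p: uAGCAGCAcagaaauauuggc
miR-148a-3p: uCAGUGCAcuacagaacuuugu
miR-152-3p: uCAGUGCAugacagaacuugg
miR-10a-5p: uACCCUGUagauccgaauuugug
miR-16 and miR-195a share the seed AGCAGCA, and miR-148a and miR-152 share CAGUGCA. miR-192 (chr19:6264857-6264877, plus strand) lies close to the miR-194 copy at chr19:6264658-6264679 on the same strand, and a second miR-194 copy lies at chr1:185313325-185313346. Both are rich in liver and gut. miR-21a (chr11:86584120-86584141, minus strand) is a broadly expressed miRNA.

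miR-122 was the most abundant assay on nearly every array. Abundance was read from the threshold cycle (Ct), the PCR cycle at which a well crosses a fixed fluorescence line, so that a lower Ct means more template. Its raw Ct was 13.4 to 15.2 on 34 arrays and 18.9 on the remaining one, ENU PTD 15 replicate 1. It had the lowest Ct of all 376 miRNAs on 32 of the 35 arrays. On those 32 arrays the next miRNA was miR-21 (17 arrays), miR-194 (12 arrays) or miR-16 (3 arrays), and it came 1.51 to 3.14 cycles later, with a median of 2.31 cycles. In the controls miR-122 averaged a Ct of 14.2 ± 0.286 (SD, n = 7), followed by miR-194 at 16.7, miR-21 at 16.7, miR-16 at 16.8 and miR-192 at 17.2. Assays of different miRNAs may amplify with different efficiency, so these ranks compare wells and not molecule numbers.

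If each cycle is taken as a doubling, miR-122 made up 33.8% ± 2.40 (SD, n = 7) of the summed signal of all miRNA wells in the controls. The share averaged 34.5, 31.1, 32.5 and 33.2% on PTDs 1, 7, 30 and 120. The averages of 25.0% on PTD 3 and 23.2% on PTD 15 each included arrays on which 1 well stood apart. On ENU PTD 3 replicate 5 the miR-876-3p well read a Ct of 9.78, against 33.9 to 39.0 on the other 34 arrays, which put miR-122 second and its share at 3.12%. On ENU PTD 15 replicate 4 the miR-129-3p well read 13.6, against 30.6 to 35.5 on the other 34 arrays, with miR-122 second at a share of 19.3%. Raw Ct of miR-122 on these 2 arrays, 14.6 and 14.5, was within the range of the others. Both wells belong to assays with a mean Ct above 30, and when only the 205 assays averaging a Ct of 30 or less were ranked, miR-122 was first on 34 arrays. On ENU PTD 15 replicate 1 it was 14th, behind 13 miRNAs, with a share of 2.25%.

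**Figure D1:**
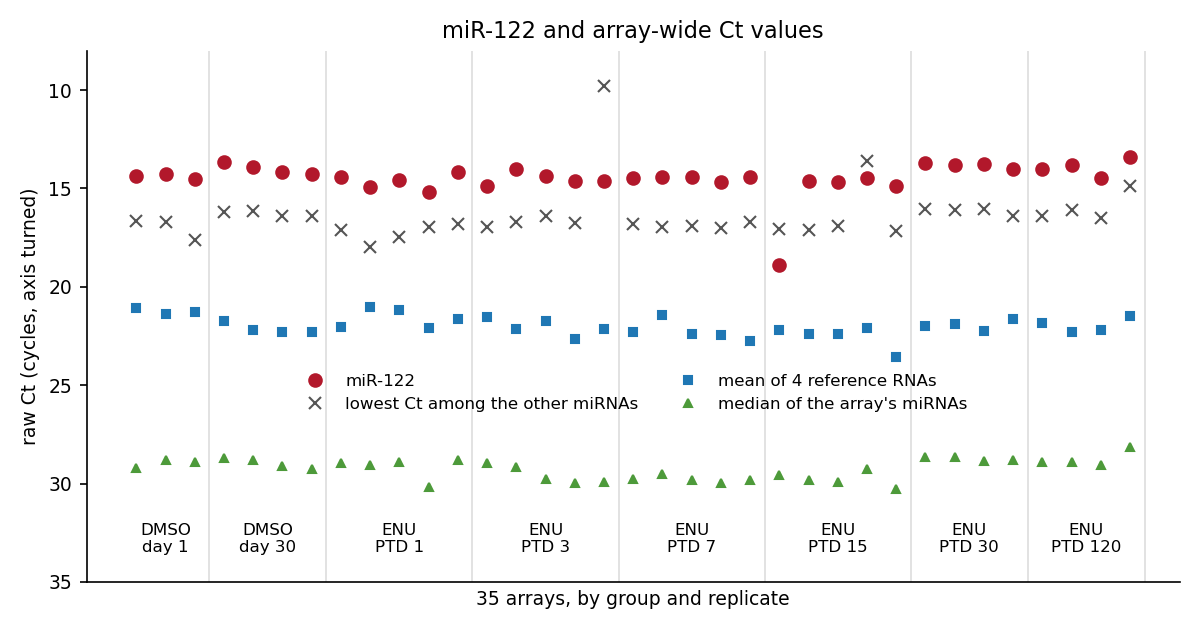
Raw Ct of miR-122 (red circles), of the lowest other miRNA (crosses), the mean of the 4 reference RNAs (blue squares) and the array median (green triangles) on the 35 arrays, with the cycle axis turned so that more template is higher. miR-122 lay above every other miRNA on 32 arrays, and on ENU PTD 15 replicate 1 it dropped to a Ct of 18.9 while the other 3 measures stayed within their usual range.

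The labelled tissue was checked against miRNAs listed as liver-rich and for other tissues, with the same limit on comparing assays. The 10 miRNAs listed as liver-rich beside miR-122 had mean Ct values from 16.8 (miR-194) to 29.3 (miR-193b), between 2.39 and 14.9 cycles after miR-122. The 14 miRNAs listed for other tissues (neuron, muscle, pancreas and embryonic stem cells) had mean Ct values from 28.6 (miR-1, a muscle miRNA) to 34.7 (miR-208b, a heart miRNA), at least 14.2 cycles after miR-122, and 12 of the 14 had a mean Ct above 30. The lists overlapped only at their ends, where liver-rich miR-193b came later than miR-1 and miR-375. Neuronal miR-124 averaged 31.2 and pancreatic miR-375 averaged 28.7. Markers of the other cells of liver spread widely. The later of the 2 endothelial markers, which are both arms of miR-126, was miR-126-5p at a mean Ct of 19.2. The 3 erythroid markers ran from 18.9 (miR-451) to 28.1 (miR-486), the 6 lymphoid and myeloid markers from 21.6 (miR-146a) to miR-155, which came between miR-142-5p (27.4) and miR-486, and the 3 stromal markers from 22.2 (miR-199b) to 26.6 (miR-214).

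Levels of miR-122 were compared as -ΔCt: the Ct of miR-122 was subtracted from the average Ct of 4 reference RNAs on its own array, namely U6, snoRNA142, snoRNA202 and snoRNA251. This is a log2 scale on which 1 unit is a doubling. DMSO day 1 livers read 6.75, 7.11 and 6.78, and DMSO day 30 livers read 8.08, 8.28, 8.12 and 8.04. The 2 vehicle days did not overlap, and every DMSO day 30 mouse was above every DMSO day 1 mouse.

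After ENU, PTD 1 livers read 7.58, 6.13, 6.60, 6.95 and 7.46, and PTD 3 livers read 6.70, 8.14, 7.39, 8.05 and 7.54. PTD 7 livers read 7.83, 6.98, 7.97, 7.75 and 8.34, and PTD 15 livers read 3.29, 7.80, 7.70, 7.60 and 8.66. PTD 30 livers read 8.26, 8.08, 8.50 and 7.63, and PTD 120 livers read 7.84, 8.47, 7.73 and 8.12. With PTD 15 replicate 1 set aside, all ENU values lay between 6.13 and 8.66, and at each PTD they overlapped the 6.75 to 8.28 of the controls.

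**Figure D2:**
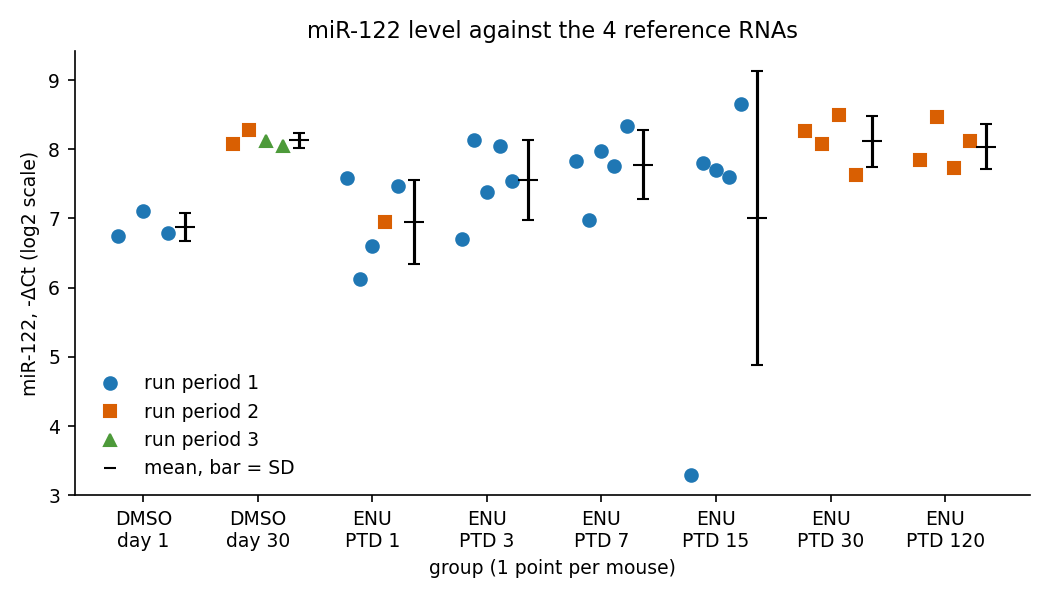
-ΔCt of miR-122 (log2 scale) in each of the 35 mice, by group. Points are mice, their shape and colour mark the period in which the array was run, and black bars are the mean ± SD. DMSO day 1 and DMSO day 30 do not overlap, and 1 of the 5 PTD 15 mice reads 3.29.

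Against the 7 controls, whose mean was 7.59 ± 0.683 (SD), miR-122 passed the test at none of the 6 PTDs. The test was limma across all 376 miRNAs, and a call needed an unadjusted p under 0.01 together with a fold change above 2. In order of time from PTD 1 to PTD 120, the log2 fold change was -0.65 (SE 0.407), -0.03 (SE 0.395), 0.18 (SE 0.373), -0.58 (SE 0.757), 0.52 (SE 0.399) and 0.44 (SE 0.394). The adjusted p-values ran from 0.480 to 0.972, and no unadjusted limma p was under 0.132. By the same rule 1.33, 2.13, 9.84, 11.4, 1.6 and 1.33% of the 376 miRNAs were called on these days. On -ΔCt, exact two-sided permutation tests over the mice gave p from 0.131 to 0.937, where 5 against 7 mice can reach 0.00253 and 4 against 7 can reach 0.00606. In whole liver, a smaller share of hepatocytes cannot be told apart from less miR-122 per cell by the level of miR-122 alone.

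On raw Ct, with no reference, PTD 15 differed more. With more template counted as positive, the log2 differences from the controls were -0.49, -0.33, -0.32, -1.36, 0.33 and 0.23 in order of time, beside medians over all miRNAs of -0.20, -0.28, -0.32, -0.41, 0.34 and 0.25. Exact permutation p-values were 0.0404, 0.0884, 0.0177, 0.00505, 0.0606 and 0.303, or 0.0808, 0.106, 0.0530, 0.0303, 0.0909 and 0.303 adjusted over the 6 days, so that PTD 15 met the call rule by the exact test and no other day did. By limma none was called on raw Ct (adjusted p from 0.165 to 0.791). Without replicate 1, whose Ct was 18.9, the PTD 15 difference on raw Ct was -0.51, under 2-fold and near the median of -0.44 over all miRNAs, with an exact permutation p of 0.0121.

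These intervals leave room for moderate changes of miR-122. The 95% confidence interval of the fold change was 0.349 to 1.16 on PTD 1, 0.543 to 1.76 on PTD 3, 0.651 to 1.97 on PTD 7, 0.216 to 2.07 on PTD 15, 0.792 to 2.61 on PTD 30 and 0.755 to 2.45 on PTD 120. PTD 15 had the widest of these intervals, with an SD of 2.12 over its 5 mice. At PTD 3 and PTD 7 a change of 2-fold in either direction was outside these intervals, and at the other 4 days it was not. In a single fit of the controls and all PTDs the log2 interval was -1.13 to 1.07 on PTD 3 and -0.92 to 1.28 on PTD 7. Against the DMSO day 1 controls alone it was -0.22 to 1.59 and 0.13 to 1.66. A 2-fold rise lay inside each of these other intervals. Without replicate 1 the PTD 15 mean was 7.94 ± 0.487 (SD, n = 4) and the log2 fold change turned to 0.35.

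The sign of each of these 6 values depended on which controls were used. DMSO day 30 livers averaged 8.13 ± 0.105 (SD, n = 4) and DMSO day 1 livers 6.88 ± 0.198 (SD, n = 3). The log2 difference of miR-122 was 1.25 (SE 0.213), a 2.38-fold higher level on day 30, with an adjusted p of 0.00771 by limma. The exact permutation test gave p = 0.0571, the smallest that 4 against 3 mice allow. In this comparison of vehicle groups 28.5% of the 376 miRNAs were called, all of them higher on day 30, the median log2 difference of all miRNAs was 1.00, and 47.7% of those measured in all 7 mice had every day 30 value above every day 1 value.

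Of the difference of 1.25, 0.884 cycles lay in the reference RNAs and 0.37 in miR-122. On average the 4 reference RNAs came later in DMSO day 30 than in DMSO day 1 livers, with snoRNA251 later by 1.28, U6 by 1.18, snoRNA142 by 0.708 and snoRNA202 by 0.370. Raw Ct of miR-122 was 13.7, 13.9, 14.2 and 14.3 in DMSO day 30 livers and 14.3, 14.3 and 14.5 in DMSO day 1 livers. It was thus earlier by 0.37 cycles on average, and the groups overlapped on that scale. The 2 kinds of control well moved by 0.102 cycles (reverse transcription control) and 0.0167 cycles (positive PCR control). With the median Ct of all miRNAs of the array as reference, the log2 difference of miR-122 was 0.35 with an adjusted p of 0.475 by limma, the median difference over all miRNAs was 0.09, and 5.05% were called. On this scale every day 30 value of miR-122 was still above every day 1 value, as for 12.3% of miRNAs measured in all 7 mice. The exact permutation p was again 0.0571, the smallest for 4 against 3 mice. All DMSO day 1 arrays were run in 1 period and all DMSO day 30 arrays in 2 later periods, so vehicle day and run period cannot be told apart.

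With only the DMSO day 1 mice as controls, miR-122 was called at PTD 30 (log2 fold change 1.24, adjusted p = 0.0177) and at PTD 120 (1.16, adjusted p = 0.0255), where 37.5% and 27.9% of all miRNAs were called in the same way. It read 0.68 on PTD 3 and 0.90 on PTD 7 (adjusted p = 0.277 and 0.0540), where 7.98% and 33% were called. With only the DMSO day 30 mice it was called on PTD 1 (-1.19, adjusted p = 0.0699), as were 13% of all miRNAs, and it read -1.12 on PTD 15 (adjusted p = 0.491), -0.01 on PTD 30 and -0.09 on PTD 120. With only the DMSO day 1 mice PTD 15 read 0.13. No PTD gave a call of miR-122 under both choices.

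**Figure D3:**
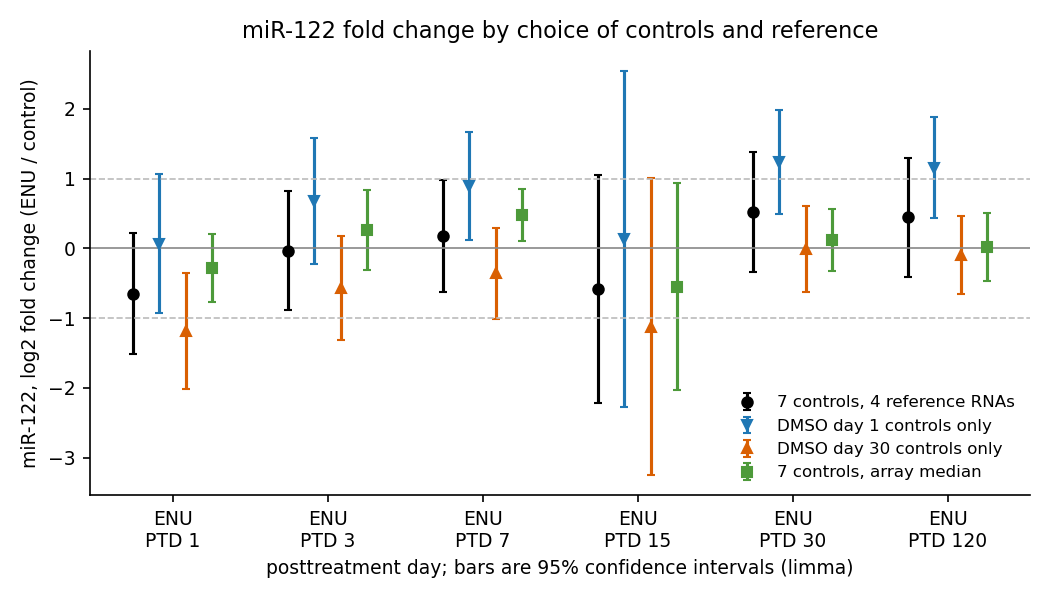
Log2 fold change of miR-122 at each PTD against all 7 controls (black), DMSO day 1 controls only (blue), DMSO day 30 controls only (orange), or all 7 controls with the array median in place of the reference RNAs (green), with 95% confidence intervals. Dashed lines mark a 2-fold change. The blue values lie above the orange ones by 1.25 at every PTD.

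Run period bore on the same point. All arrays of PTD 3, 7 and 15 and 4 of the 5 of PTD 1 were run in the period of the DMSO day 1 controls, and all arrays of PTD 30 and 120 were run with 2 of the DMSO day 30 controls. Within the first period the log2 fold change of miR-122 was 0.07, 0.68, 0.90 and 0.13 on PTDs 1, 3, 7 and 15, and within the second period it was -0.06 and -0.14 on PTDs 30 and 120. The 1 PTD 1 array of the second period read 1.23 below the 2 controls of that period (log2 fold change -1.23, adjusted p = 0.155 by limma), a value that rests on a single ENU mouse, assumed to vary as the controls do, and that shows little about the call rule. None of the 6 values within periods that rest on more mice met the call rule.

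Vehicle mice of the same day were available for PTD 1 and PTD 30. ENU PTD 1 livers averaged 6.94 ± 0.606 (SD, n = 5) against 6.88 in DMSO day 1 livers, a log2 difference of 0.07 (SE 0.462). ENU PTD 30 livers averaged 8.12 ± 0.370 (SD, n = 4) against 8.13 in DMSO day 30 livers, a log2 difference of -0.01 (SE 0.275). Neither passed (adjusted p = 0.998 and 0.999 by limma), with 1.06% and 1.33% of all miRNAs called, and the fold-change intervals ran from 0.525 to 2.09 and from 0.645 to 1.52. The 2 effects differed by 0.08 (SE 0.899), with an adjusted p of 0.995 by limma for the difference itself and 1.06% of all miRNAs called.

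Relative to the array median, PTD 7 and control values of miR-122 did not overlap, but the typical miRNA of the panel differed by as much. The 5 PTD 7 livers read 15.1 to 15.4 on this scale and the 7 controls 14.4 to 15.0, and the log2 difference was 0.48, a change under 2-fold, beside a median of 0.49 over all miRNAs on this scale. The exact permutation p was 0.00253, the smallest that 5 against 7 mice allow, and limma gave an adjusted p of 0.0452. Of the miRNAs measured in all 12 mice, 17.2% also had every PTD 7 value above every control on this scale. With the reference RNAs the PTD 7 and control values overlapped. At the other 5 PTDs miR-122 overlapped the controls on both scales.

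A single PTD 15 liver had a low miR-122 reading. Raw Ct in the 5 PTD 15 mice was 18.9, 14.6, 14.7, 14.5 and 14.9. Replicate 1 lay 4.65 -ΔCt units below the mean of the other 4, which corresponds to a 25.1-fold lower level if each cycle is a doubling. Over all miRNAs with values the median difference between replicate 1 and the other 4 was -0.13, so the array as a whole did not move by this amount. Its mean reference Ct was 22.2 and its array median Ct 29.5.

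No other abundant miRNA of that liver was affected to a like extent. Of the 28 assays averaging a Ct of 20 or less, the largest difference after miR-122 was -0.80, for miR-194, and of the 205 averaging 30 or less it was -1.63, for miR-671-3p. The 10 liver-rich miRNAs differed by -0.80 (miR-194) to 0.26 (miR-22), with a median of -0.29. miR-148a differed by -0.62, miR-802 by -0.51, miR-192 by -0.35 and miR-215 by -0.23. The miRNAs farthest from the other 4 mice beside miR-122 were measured late: miR-129-3p (-4.72, set by the replicate 4 well named above), miR-292-3p (-4.67, Ct 37.4 against 33.2), miR-434-3p (3.33, Ct 30.8 against 34.5) and miR-202-3p (2.76, Ct 30.1 against 33.3).

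The ratio of miR-122 to the mean of miR-192 and miR-194, both hepatocyte-rich, does not use the reference RNAs. It was -1.40 on the log2 scale in replicate 1 and 2.24 to 3.38 on the other 34 arrays. The summed level of the 4 hepatocyte markers other than miR-122 was 6.17 in replicate 1, the lowest of a PTD 15 range whose highest was 7.40, and the control range was 4.86 to 7.11. The neighbouring 4 wells of the plate (miR-138, miR-688, miR-710 and miR-495) differed by -1.92 to 1.15. Over all arrays 28 of 13145 miRNA wells lay as far from the other mice of their group as this one, in 17 arrays, but among the 980 wells of the 28 most abundant assays it was the only one. The instrument set no warning on the miR-122 well of any array. There was no second miR-122 well on the array, so a low level in that liver and a failure of that well cannot be told apart.

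**Figure D4:**
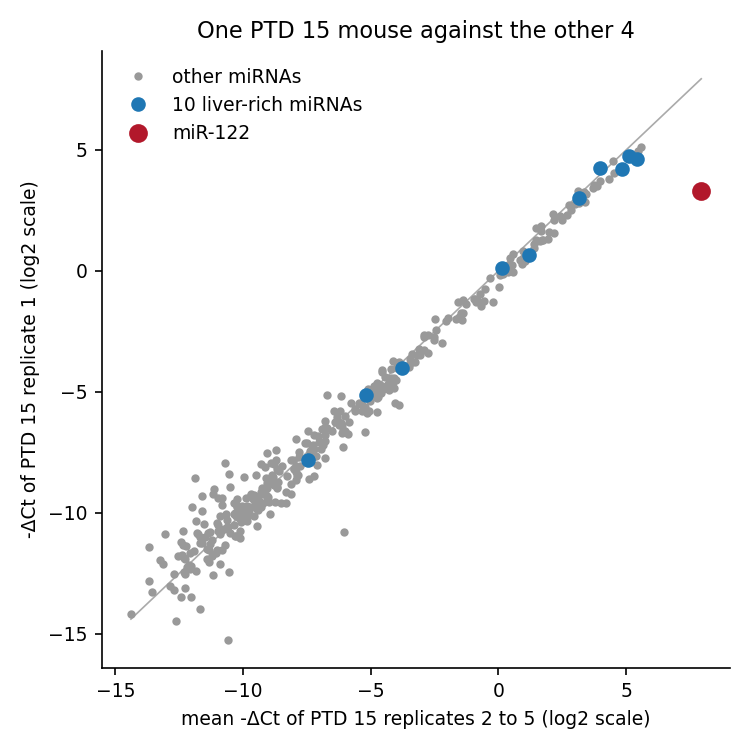
-ΔCt (log2 scale) of each miRNA in PTD 15 replicate 1 (vertical) against its mean in PTD 15 replicates 2 to 5 (horizontal), with the line of equality. miR-122 (red) lies 4.65 units under the line while the 10 liver-rich miRNAs (blue) lie within 0.80 of it, and scatter is otherwise wide only among miRNAs of low level.

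Ordered by mean -ΔCt, miR-122 was highest at PTD 30 (8.12), followed by PTD 120 (8.04), PTD 7 (7.77), the controls (7.59), PTD 3 (7.56), PTD 15 (7.01) and PTD 1 (6.94). None of the 6 neighbouring pairs differed beyond their spread, with exact permutation p from 0.429 to 0.952 and an adjusted p of 0.952 for each. The ends of the order, PTD 30 and PTD 1, differed by 1.17 with an exact permutation p of 0.0159, the smallest for 4 against 5 mice. That pair was picked as the highest and lowest, and its arrays lie mostly in different run periods. Without PTD 15 replicate 1 the PTD 15 mean of 7.94 moved above PTD 3, the controls and PTD 7 to the third place, next to PTD 120. PTD 1, no longer its neighbour, lay 0.99 below it, with an exact permutation p of 0.0159 and a p of 0.0952 adjusted over the 6 pairs.

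Few of the other liver-rich miRNAs were called against the controls, which is near the shares over all miRNAs. On -ΔCt, of these 10 none was called on PTDs 1, 3, 15, 30 or 120, beside 1.33, 2.13, 11.4, 1.6 and 1.33% of all miRNAs. On PTD 7 miR-193b alone was called, lower (-1.02, adjusted p = 0.0719), which is near the 9.84% of all miRNAs called on that day. With the array median as reference, miR-22 was called instead, higher on PTD 3 (1.21, adjusted p = 0.0930) and on PTD 7 (1.21, adjusted p = 0.0110), where 4.79% and 18.1% of all miRNAs were called. No other member was called on any PTD with that reference, beside 3, 55, 5 and 5 of the 376 miRNAs on PTDs 1, 15, 30 and 120. In order of time their median log2 fold change was -0.65, 0.12, 0.28, 0.48, 0.64 and 0.35, beside medians over all miRNAs of -0.37, 0.02, 0.19, 0.36, 0.54 and 0.46. The value of miR-122 lay between those of the lowest and highest member on PTDs 1, 3, 7, 30 and 120. On PTD 15 it was below the lowest member, miR-193b at -0.50, and without replicate 1 it was 0.35.

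Between the vehicle groups 5 of the 10 were called, all higher on DMSO day 30, beside 28.5% of all miRNAs: miR-192 (1.52), miR-194 (1.66), miR-215 (2.45), miR-148a (1.74) and miR-802 (2.12). Their list median was 1.35, beside 1.00 over all miRNAs, and miR-122 at 1.25 lay between these medians. The summed hepatocyte markers, with miR-122 among them, ranged from 7.12 to 7.58 on DMSO day 1 and from 8.58 to 8.81 on DMSO day 30. Without miR-122 their sums ranged from 4.86 to 5.76 and from 6.80 to 7.11. The sums of 4 lists of other cells of liver also did not overlap. Of the single miRNAs measured in all 7 mice, 47.7% had every day 30 value above every day 1 value. Endothelial markers (both miR-126 arms) ranged from 3.01 to 3.94 and from 4.81 to 5.35, the 6 lymphoid and myeloid markers from 0.56 to 1.42 and from 1.88 to 2.46, the 3 stromal markers from -1.37 to -0.65 and from 0.66 to 0.97, and the 3 erythroid markers from 2.09 to 2.25 and from 2.70 to 3.43, all as log2 of the sum. The sums follow their most abundant members: both endothelial markers, 3 of the 6 lymphoid and myeloid, 1 of the 3 stromal and 0 of the 3 erythroid markers were called, the erythroid median was 0.06, and miR-142-5p read -0.46 and miR-144 read -0.16. Of the lists of other tissues, the neuron sums did not overlap (-10.1 to -8.61 and -8.37 to -7.28), while those of muscle (-9.26 to -4.16 and -6.06 to -5.22) and pancreas (-7.67 to -6.49 and -6.79 to -5.56) did. Their part in the difference of miR-122 was not tested.

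The ratio of miR-122 to miR-192 and miR-194 passed the test on none of the PTDs. It was 2.78 ± 0.282 (SD, n = 7) in the controls, and at the 6 PTDs it differed from that by 0.12, -0.26, -0.19, -0.92, -0.12 and 0.03. PTD 15 read -0.11 without replicate 1. Exact permutation p-values were 0.545, 0.0657, 0.0682, 0.245, 0.509 and 0.897 in the same order.

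miRNAs tied to lipid metabolism, a process that miR-122 also serves, were taken as a second list of 7. None was called at PTD 1, 3, 30 or 120, beside 1.33, 2.13, 1.6 and 1.33% of all miRNAs. At PTD 7 and PTD 15 only miR-758, which targets the cholesterol exporter ABCA1, was called, lower by a log2 fold change of -3.07 and -3.11 (adjusted p = 0.00926 and 0.0162). Over all miRNAs 9.84% and 11.4% were called on these days, so 1 of 7 is near the background. miR-33, which lies within a Srebf gene and also targets ABCA1, read 0.54 at PTD 7 and 1.10 at PTD 15 without passing. The list medians at PTD 7 and PTD 15 were 0.34 and 0.68, beside 0.19 and 0.36 over all miRNAs. Of the 14 miRNAs of other tissues, 1 was called at any PTD, neuronal miR-9* at PTD 7 (-2.31, adjusted p = 0.00847), at a mean Ct of 32.4 and beside the 9.84% of all miRNAs called on that day.

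miRNAs whose level varied like that of miR-122 were sought among the 200 others that had a Ct on every array and averaged 30 or less. Over 35 arrays the highest Pearson r of -ΔCt was found for miR-194 (0.69), miR-676 (0.68), miR-10a (0.65), miR-712 (0.65) and miR-203 (0.64), against a median r of 0.44. PTD 15 replicate 1 weighed on this ranking. Without it, over 34 arrays, the highest were miR-152 (0.96), miR-16 (0.96), miR-10a (0.96), miR-140 (0.96) and miR-194 (0.95), the median was 0.72, and 37 of the 200 exceeded 0.9. miR-676 and miR-712 dropped to places 83 and 77. miR-130b, at -0.20, was lowest. All these values share the reference RNAs of their array, which alone moves all miRNAs of a sample together. With the array median as reference and without that array, the 5 highest were let-7a (0.93), miR-27a (0.92), miR-152 (0.91), miR-148a (0.91) and miR-27b (0.91), with a median of 0.50. miR-152 and miR-148a, which share a seed, were thus both among these 5, as were miR-27a and miR-27b. With the reference RNAs miR-148a was not among the 5 highest over 35 or 34 arrays. The miRNAs named from the 34-array rankings were chosen after their values were seen.

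**Figure D5:**
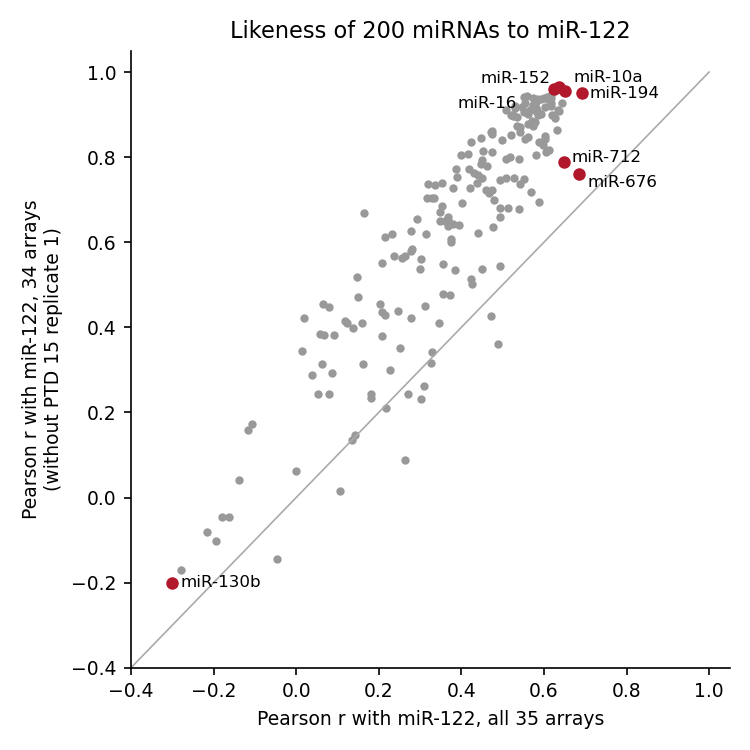
Pearson r of -ΔCt with miR-122 for 200 miRNAs, over all 35 arrays (horizontal) and over 34 arrays without PTD 15 replicate 1 (vertical). Most points lie above the line of equality, and the median r is 0.44 across and 0.72 upward. Named miRNAs are in red.

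Raw Ct of miR-122 was set against 4 array-wide measures over the 35 arrays. With the array median Ct, Pearson r was 0.42 (permutation p = 0.00557, adjusted p = 0.0223) and Spearman rho was 0.74 (permutation p = 1e-05, the smallest that 100000 permutations give, adjusted p = 4e-05). Within the first run period (22 arrays) r was 0.12, within the second (11 arrays) 0.95, and within groups 0.11. Without PTD 15 replicate 1 the Pearson r was 0.74, with 0.35 within the first run period and 0.65 within groups. Without the 2 arrays of most extreme median it was 0.39 with and 0.68 without that replicate.

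With the mean reference Ct, r was 0.13 and rho 0.19 (permutation p = 0.438 and 0.270, both also after adjustment), and r was 0.14 without the 2 most extreme arrays. It was 0.12 and 0.40 within the first and second run periods and -0.07 within groups. For the reverse transcription control wells r was 0.30 and rho 0.52 (permutation p = 0.0776 and 0.00150, adjusted p = 0.103 and 0.00300). Their r was 0.03 and 0.48 within the run periods, -0.09 within groups and 0.31 without the 2 most extreme arrays. For the positive PCR control wells r was 0.30 and rho 0.46 (permutation p = 0.0742 and 0.00570, adjusted p = 0.103 and 0.00760). Here r was 0.08 and 0.78 within the run periods, 0.29 within groups and 0.32 without the 2 most extreme arrays.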

How the data were processed

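Small RNA (200 ng per liver) was reverse transcribed and measured by SYBR Green PCR on 384-well arrays with 376 miRNA assays, 4 reference RNAs, and 2 reverse transcription control and 2 positive PCR control wells. The deposited files hold, for each well, the Ct that the authors' instrument software (SDS 2.3) gave at a threshold of 0.15 over 40 cycles, on a log2 scale and not normalized. Wells were named from the panel list in the study's supplement. In all, 15 wells on 11 arrays had no Ct and were left missing, none of them miR-122. On 1 array, ENU PTD 3 replicate 3, the deposited Ct differ from the study's normalized table, and the deposited Ct were used.

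-ΔCt was taken against the mean of the 4 reference RNAs, and each PTD was fitted against the 7 controls with limma 3.58.1 (R 4.3.3), with Benjamini-Hochberg adjustment over 376 miRNAs. The study's rule (p under 0.01, fold change above 2) made the calls. miR-122 alone was also tested by exact two-sided permutation (scipy 1.17.1), the one-sided p being doubled. The scripts were tested on simulated data. Groups came from the sample labels, and run periods from the times in the file headers. Each value rests on 1 well per mouse, so well error and differences between mice are not separated.

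Named miRNAs were miR-122, the 5 most like it, the 5 most abundant in controls, the members of the lists, and the 5 farthest on an array where miR-122 stood apart; any other, such as miR-195a, was chosen after its values were seen. miR-122 and the lists were chosen with earlier results of these data known. Other reference sets, controls, tests, filters, run period and leaving out each mouse were tried as alternatives. The sequence of miR-122 is not reported here.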

Additional observations from a re-analysis of the deposited data

Results flagged for a closer look

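In 8 groups of 4 to 7 mice, 5 measures of miR-122 were checked for a mouse far from the others of its group, and 9 of the 40 sets held one. About 1 in 20 such sets is marked by chance, and the 5 measures share their values. The groups were the 7 pooled controls, the 4 DMSO day 30 mice alone and each PTD, so the DMSO day 30 mice were checked in more than 1 group. The DMSO day 1 mice were not checked alone. ENU PTD 15 replicate 1 stood apart in 4 measures: a raw Ct of 18.9, a -ΔCt of 3.29, a level of 10.6 against the array median, and a level of -1.40 against miR-192 and miR-194. Of the other marks, ENU PTD 7 replicate 4 had a raw Ct of 14.7 in a group that spanned 14.4 to 14.7, ENU PTD 3 replicate 1 had a level of 14.1 against the array median where the other 4 mice read 15.2 to 15.4, and among the 7 controls DMSO day 1 replicate 3 had a level of 3.38 against miR-192 and miR-194 and a share of 38.9% of the summed signal. ENU PTD 3 replicate 5 had a share of 3.12%, beside the miR-876-3p well that read a Ct of 9.78.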

How the results depend on the processing

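The sign of the PTD values changed with the controls, the reference and the run period, and the cause was not tested. Against DMSO day 1 controls alone the log2 fold change of miR-122 read 0.066, 0.68, 0.13, 1.24 and 1.16 on PTDs 1, 3, 15, 30 and 120, and against DMSO day 30 controls alone -1.19, -0.36, -0.013 and -0.092 on PTDs 1, 7, 30 and 120. The values 1.24, 1.16 and -1.19 met the call rule. Within 1 run period they were 0.065, 0.68, 0.13, -0.063 and -0.14 on PTDs 1, 3, 15, 30 and 120, and with the run period as a block 0.68, 0.13, -0.063 and -0.14 on the last 4 of these. With miR-192 and miR-194 as reference PTDs 1, 7 and 30 read 0.12, -0.19 and -0.12. PTD 3 read 0.26 with the array median, 0.14 and 0.0051 without snoRNA202 or U6, and 0.081 and 0.48 with snoRNA251 or snoRNA142 alone. PTD 7 read -0.32 on raw Ct and -0.011 with the reverse transcription control wells. None of these other values was called. The vehicle difference kept its size of 1.25 but lost its call in a single fit of the 8 groups and in the exact permutation test, which cannot reach the threshold at this size. It was not called with the array median (0.35), snoRNA202 alone (0.74), U6 alone (1.54), raw Ct (0.37) or the reverse transcription control wells (0.47), and it was -0.34 against miR-192 and miR-194. The day-matched PTD 1 difference turned to -0.080 (array median), -0.038 (without snoRNA142), -0.013 (without U6), -0.56 (snoRNA202 alone), -0.28 (raw Ct), -0.15 (reverse transcription control wells) and -0.079 (miR-192 and miR-194). The day-matched PTD 30 difference turned to 0.035, 0.079 and 0.018 (without snoRNA251, snoRNA202 or U6), 0.50 (snoRNA142 alone), 0.17 (raw Ct) and 0.025 (miR-192 and miR-194).

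On -ΔCt by limma, leaving out each mouse in turn moved no value of miR-122 across the call rule, while on raw Ct by the exact permutation test PTD 15 met it with replicate 1 (-1.36) and not without (-0.51). The range was -0.81 to -0.44 on PTD 1, -0.18 to 0.18 on PTD 3, 0.04 to 0.38 on PTD 7, -0.996 to 0.35 on PTD 15, 0.38 to 0.69 on PTD 30, 0.30 to 0.56 on PTD 120, 1.19 to 1.37 between vehicle groups, and -0.094 to 0.27 and -0.14 to 0.15 for the day-matched PTD 1 and PTD 30 differences. PTD 3 turned positive without ENU PTD 3 replicate 1 (0.18) or 3, or without any 1 of the DMSO day 30 mice, PTD 15 without replicate 1, the day-matched PTD 1 difference turned negative without ENU PTD 1 replicate 1 or 5, and that of PTD 30 turned positive without ENU PTD 30 replicate 2 or 4 or DMSO day 30 replicate 2. Without ENU PTD 15 replicate 1, PTD 3 minus PTD 15 turned to -0.38, and r of raw Ct passed with the reverse transcription control wells (0.50) and the positive PCR control wells (0.53), but within the first run period these were 0.10 and 0.015 and within groups 0.071 and 0.51, and the permutations ignored period and group. Of the 5 miRNAs most like miR-122, 1 stayed with Spearman's rho, 3 with deviations from group means, 2 without that array, and 0 without it on the array median or raw Ct.

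Of 42 ENU and vehicle pairs with the same replicate number, 8 had r above 0.1 and 9 correlated best with their own number. Of these 8, 4 were the 4 pairs of ENU PTD 3 with DMSO day 30 mice (r from 0.23 to 0.48), where 2 ENU mice correlated best with their own number; the pairs of PTD 3 with DMSO day 1 mice had r from -0.13 to 0.015, and no other pair of groups had every r above 0.1. Against DMSO day 30 mice alone PTD 3 read -0.57 without and -0.56 with the replicate block, an alternative chosen after seeing the data, with 23 and 28 miRNAs called. Elsewhere the samples shared only a number. With the replicate block the log2 fold change was -0.82, -0.088, 0.00075, -1.09, 0.53 and 0.41 over the 6 PTDs, 1.28 between vehicle groups, and -0.11 and -0.013 for the day-matched differences, and miRNAs called numbered 5 in place of 8 on PTD 3 and 27 in place of 43 on PTD 15.

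The number of miRNAs called ran over the alternatives from 0 to 50 on PTD 1 (5 as reported), 5 to 50 on PTD 3 (8), 11 to 143 on PTD 7 (37), 24 to 160 on PTD 15 (43), 2 to 141 on PTD 30 (6), 0 to 105 on PTD 120 (5) and 13 to 144 between vehicle groups (107), and from 0 to 9 (4) and 3 to 20 (5) in the day-matched comparisons. The study's methods name t-tests without their scale. On ΔCt such a test called 4, 5, 31, 38, 4 and 1 miRNAs over the 6 PTDs, with 0, 3, 22, 30, 2 and 0 at an adjusted p under 0.05 and the same fold change, and on the linear scale it called 3, 5, 14, 33, 5 and 5, with 0, 0, 4, 28, 2 and 0. It called miR-122 on none of these days on either scale.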
